A study of Homo sapiens with 4 samples.

Results

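The clustered protocadherins are 54 gene names, out of 61471 counted, that lie in 3 neighbouring arrays on chromosome 5: 16 alpha, 16 beta and 22 gamma members. They were taken by name alone (PCDHA, PCDHAC, PCDHB, PCDHGA, PCDHGB or PCDHGC followed by a number). The family was picked for description after the comparison below was known, so the counts and calls given here describe the family and are not independent evidence about it. The 4 RNA libraries are all of MDA-MB-231 (MDA-B-231 in the sample titles), a human triple-negative breast cancer cell line, from cells grown in DMEM with fetal bovine serum, penicillin and streptomycin. All 4 libraries carry the genotype label WT and the transfection label H2B-EGFP, CMV-RFP, that is, a histone H2B fused to green fluorescent protein and a red fluorescent protein behind the CMV promoter. The EGFP positive group (2 libraries) is labelled as having no increased extravasation, and the EGFP negative group (2 libraries) as having increased extravasation. The series title concerns polyploidy, extravasation (the passage of cells out of a vessel) and adhesion to matrix. Ploidy is not among the labels, and EGFP status and extravasation status change together, so their parts in any difference cannot be told apart. The labels state neither the number of transfected clones nor whether replicate libraries are from different cultures, so a p-value here refers to the scatter among these 4 libraries, which may be technical.

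Clustered protocadherins are cell surface proteins of the cadherin superfamily, best known from neurons, where each cell expresses a small set of them and membranes that carry the same set recognise each other. In the alpha and gamma arrays each member has its own large first exon, which encodes the extracellular part, the membrane span and a short piece inside the cell, and this exon is spliced to small constant exons that all members of the array share and that encode the common cytoplasmic end. Beta members are encoded by a single large exon and lack the constant part. Each first exon has its own promoter, and most of these promoters carry a short conserved element. The choice among the promoters is governed by distant enhancers, CTCF, cohesin and DNA methylation.

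The genes span chr5:140786136-141512977 (GRCh38), 726842 bp in all, and every member is on the + strand. The alpha array occupies chr5:140786136-141012347, the beta array chr5:141051374-141249365 and the gamma array chr5:141330514-141512977. RefSeq windows of 250 bases before and 50 after a gene's start (GRCh38.p14) matched 47 of the 54 symbols, 13 alpha, 14 beta and 20 gamma. The conserved element is shown because it is the sequence the members have in common upstream of exons that otherwise differed in expression. Its letters were chosen after the windows had been read, and each form contains the core CGCT, which alone is found in 71.9% of all 27305 windows. On either strand, the beta form GGTGGCGCT was in 13 of 14 beta windows (all but that of PCDHB1) and in 0.619% of all windows. The alpha form ATGTCGCT was in 9 of 13 alpha windows against 0.282% of all, and the gamma forms GCCGCTGT and GTCGCTGT were in 11 and 6 of 20 gamma windows against 1.98% and 0.791% of all. GTCGCTGT overlaps ATGTCGCT in 5 alpha windows. In every member with a match the element lay on the gene's own strand. Its median distance to the nearest RefSeq start was 57 bases in the beta, 52 in the gamma and 44 in the alpha array. A match is a run of letters and not a measured binding site. In the 60-base stretches below the capitals mark the element, and the genes are some of those whose values follow, with 1 alpha gene for comparison. PCDHB11 had no window, and the element of PCDHB8 ran past its RefSeq start, so neither is printed.
PCDHB16, chr5:141182296-141182355: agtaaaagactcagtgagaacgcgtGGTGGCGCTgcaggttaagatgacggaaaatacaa
PCDHB9, chr5:141187060-141187119: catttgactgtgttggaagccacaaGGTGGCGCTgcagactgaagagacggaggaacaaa
PCDHB10, chr5:141192285-141192344: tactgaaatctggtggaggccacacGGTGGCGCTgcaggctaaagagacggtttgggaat
PCDHB12, chr5:141208629-141208688: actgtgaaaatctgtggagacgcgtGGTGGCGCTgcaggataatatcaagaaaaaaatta
PCDHB13, chr5:141213851-141213910: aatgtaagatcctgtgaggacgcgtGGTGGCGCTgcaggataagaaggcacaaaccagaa
PCDHB14, chr5:141223249-141223308: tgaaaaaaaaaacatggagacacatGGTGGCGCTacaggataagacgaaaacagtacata
PCDHGA1, chr5:141330389-141330448: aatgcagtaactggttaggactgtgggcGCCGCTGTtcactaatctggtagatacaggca
PCDHGB1, chr5:141350011-141350070: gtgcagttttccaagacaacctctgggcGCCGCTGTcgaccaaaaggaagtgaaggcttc
PCDHGA4, chr5:141354946-141355005: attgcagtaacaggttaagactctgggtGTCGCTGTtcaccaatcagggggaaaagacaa
PCDHGB2, chr5:141359907-141359966: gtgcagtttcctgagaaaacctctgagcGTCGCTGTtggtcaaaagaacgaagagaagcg
PCDHGC3, chr5:141475866-141475925: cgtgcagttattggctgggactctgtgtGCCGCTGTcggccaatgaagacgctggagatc
PCDHA2, chr5:140794767-140794826: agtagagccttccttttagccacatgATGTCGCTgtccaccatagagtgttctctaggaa

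The shared exons limit what the counts can show. Fragments were counted over exons grouped by gene name, and a fragment that lay wholly in exons of several names was assigned to none. The 3 constant exons of the alpha array (2869 bp) belonged to 15 of its 16 members, and the 3 constant exons of the gamma array (2177 bp) to all 22, so an alpha or gamma count comes almost wholly from a member's own first exon. The share of a member's exon length that also belonged to another name had a median of 49.9% in the alpha, 3.45% in the beta and 43.85% in the gamma array. PCDHA1 kept 7 bp of its own, because an antisense gene name covers the rest of its first exon, and PCDHA14, a pseudogene inside exons of PCDHA10, kept 0 bp. Counting used no strand option, so antisense fragments could not be told apart. The gene names that overlap members in this way had 0 or 1 count in every library. Fragments wholly within the shared bases were assigned to no name, so these low counts do not show what was transcribed there.

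**Figure D1:**
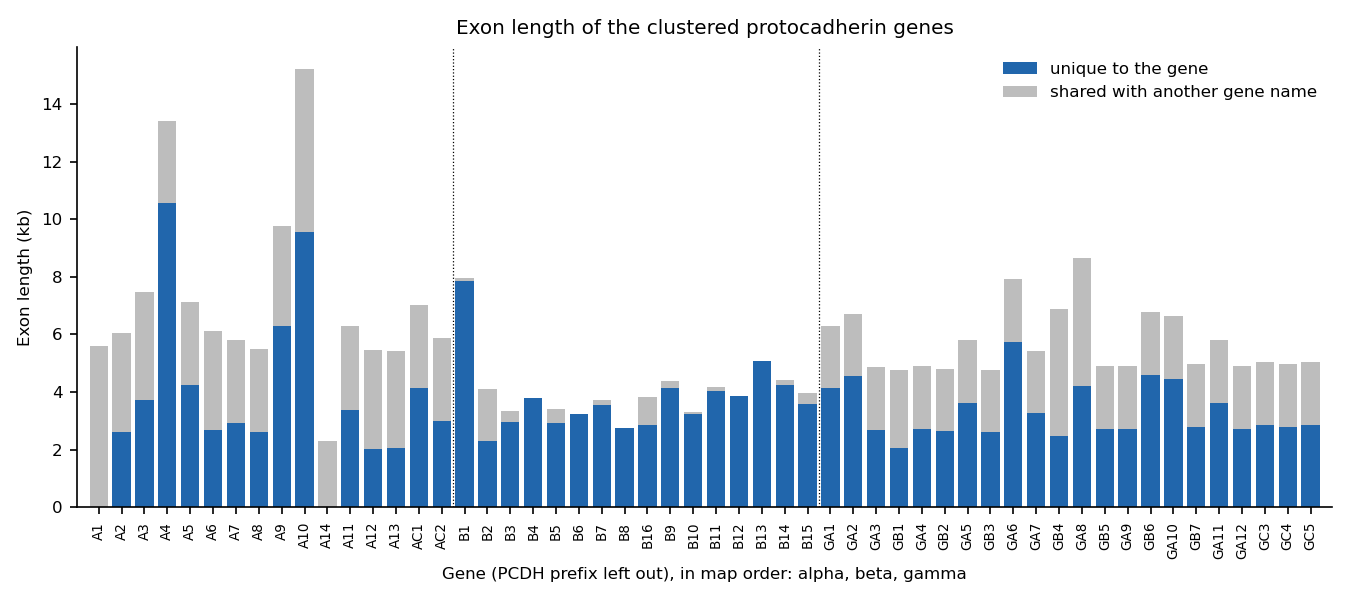
Exon length in kb of each clustered protocadherin in map order, split into length found in that gene name only (blue) and length shared with another gene name on either strand (grey). Beta members are nearly all blue, with PCDHB2 the most shared, and PCDHA1 and PCDHA14 have almost no blue part.

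Members also resemble each other in sequence. Of all 100-base words of the PCDHB8 exons, 25.7% occurred unchanged in another clustered protocadherin, mostly in PCDHB13 (20.2%). The share was 24.7% for PCDHB10, mostly with PCDHB9, and 15.1% for PCDHB13. It was 6.5% for PCDHB16, 6.5% for PCDHB11, 4.6% for PCDHB14, 8.6% for PCDHGB1 and for PCDHGB2, 2.7% for PCDHGA1 and 0% for PCDHGC3 and PCDHGA4. How reads that fit several places were handled before counting is not given in the sources used here. Values of PCDHB8, PCDHB13, PCDHB9 and PCDHB10 are therefore uncertain in how they split between copies. The shares of PCDHGB4 and PCDHGA8 (55.3% and 34.8%) are mostly of another kind. They come mainly from 2266 bp of exon that belong to both names, and a fragment wholly inside these was assigned to neither. The other shared words of PCDHGB4 leave the same uncertainty between copies.

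Total counts ran from 11445076 to 12635576 per library, and 16413 gene names passed the filter on low counts. Levels are given as CPM, the count scaled to a common library total. Markers of the line were listed here and are not given by the labels, and most of them followed that list. VIM stood at 4181 CPM or more and CD44 and EGFR above 476 CPM in every library. ESR1, PGR and CDH1, listed as low or absent, had at most 3 counts. SPARC, listed as a marker of the line, had 2 to 5 counts. ERBB2 (929 to 1235 counts) and EPCAM (80 to 153 counts), also listed as low or absent, were detected in all 4 libraries. Several of these markers differed between groups by edgeR's quasi-likelihood test. In the EGFP negative libraries VIM was called higher (log2 fold change 0.47, edgeR adjusted p = 0.000196). CD44 (-0.43, edgeR adjusted p = 0.000829), EGFR (-0.33, edgeR adjusted p = 0.0059) and EPCAM (-0.93, edgeR adjusted p = 0.0021) were called lower. ERBB2 was not called (0.26, edgeR adjusted p = 0.057). The T cell gene CD3E, the endothelial cadherin CDH5 and the fibroblast gene DCN had 0 counts in every library. Among the other cell type markers, PECAM1 (9, 9, 39 and 43 counts, EGFP positive libraries first) and LYZ (2, 3, 10 and 15 counts) were higher in the EGFP negative libraries. The 3 endothelial markers together stood at 0.955 to 1.04 CPM in the EGFP positive and 3.21 to 3.69 CPM in the EGFP negative libraries, and within that list VWF had 3 and 2 against 1 and 0 counts. The leukocyte gene PTPRC had 6 and 2 against 4 and 2 counts. The 5 neural markers summed to 20.9 to 25.4 CPM in all 4 libraries. The part of these markers in the results below was not tested.

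Clustered protocadherin RNA was scarce and was more abundant in the EGFP negative libraries. Summed over all 54 members it amounted to 453 and 416 counts in the EGFP positive libraries against 938 and 747 in the EGFP negative ones. This was 37.6 ± 2.18 CPM (SD, n = 2) against 69.7 ± 8.02 CPM, a ratio of 1.85. Both EGFP negative libraries lay above both EGFP positive ones. In bulk RNA, more cells that express a gene and more RNA per expressing cell cannot be told apart. No test of the sum is given: with 2 libraries against 2, the smallest two-sided p of an exact permutation test is 0.33.

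The excess was in the beta and gamma arrays. Beta members summed to 10.7 and 10.1 CPM in the EGFP positive and 23.9 and 23.5 CPM in the EGFP negative libraries, a ratio of 2.28. Gamma members summed to 28.4 and 25.9 CPM against 51.5 and 40.4 CPM, a ratio of 1.70. Alpha members held 1 and 2 counts in the EGFP positive and 0 and 1 in the EGFP negative libraries over all 16 genes. The alpha array was thus at or below the floor of 3 counts per library (0.241 to 0.260 CPM) in all 4 libraries, and no fold is given for it. The ratio of beta to gamma counts was 0.378 and 0.389 in the EGFP positive and 0.463 and 0.581 in the EGFP negative libraries.

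Of the 54 members, 13 had no count in any library (12 alpha members and PCDHB1), 38 in all failed the filter on low counts, and 16 were tested, 8 beta and 8 gamma. In the EGFP negative libraries 7 of the 16 were called higher (PCDHB8, PCDHB11, PCDHB13, PCDHB14, PCDHGA1, PCDHGB1 and PCDHGB2) and 1 was called lower (PCDHB16), by edgeR's quasi-likelihood test with Benjamini-Hochberg adjustment over all 16413 names. Over all tested names 18.9% were called, 9.4% higher and 9.46% lower. The median log2 fold change was 1.39 over the 8 beta members and 0.82 over the 8 gamma members tested, and -0.00 over all tested names. The 2 groups did not overlap in 11 of the 16 members, 10 higher and 1 lower, where 28.1% of all tested names lay wholly higher and 29.3% wholly lower. Members had to reach the filter's level in at least 1 group, so these counts do not stand for all 54.

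**Figure D2:**
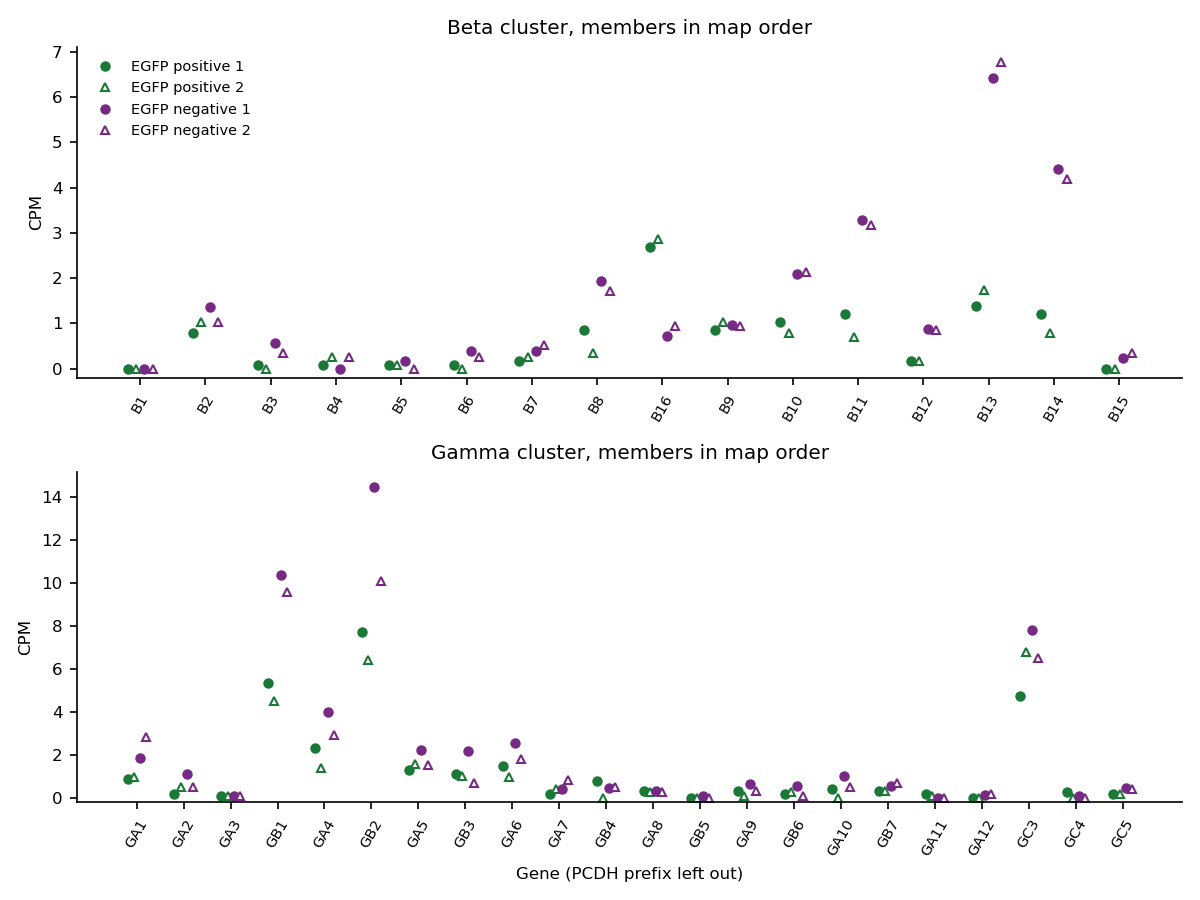
Level of each beta member (top) and gamma member (bottom) in CPM, in map order, with each of the 4 libraries as a point (green EGFP positive, purple EGFP negative, circle replicate 1, triangle replicate 2). PCDHB13 stands at 1.38 and 1.74 CPM in green and 6.43 and 6.77 CPM in purple, while PCDHB16 is the beta member whose green points lie highest above its purple ones.

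The largest fold changes among the tested members were those of PCDHB13 and PCDHB14, neighbouring beta genes that encode homophilic adhesion proteins of the array. PCDHB13 (chr5:141213919-141218979) had 16 and 20 counts in the EGFP positive and 80 and 79 in the EGFP negative libraries. Its level was 1.56 ± 0.249 CPM (SD, n = 2) against 6.60 ± 0.243 CPM, a log2 fold change of 2.07 ± 0.29 (SE; edgeR adjusted p = 0.000175). All replicates of a group lay close together and the groups were far apart. PCDHB14 (chr5:141223343-141227759) had 14 and 9 counts against 55 and 49, with 0.996 ± 0.304 and 4.31 ± 0.155 CPM and a log2 fold change of 2.10 ± 0.35 (edgeR adjusted p = 0.00084). Its groups were likewise far apart.

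PCDHB11 and PCDHB8 rose as well, from fewer counts. PCDHB11 had 14 and 8 counts in the EGFP positive and 41 and 37 in the EGFP negative libraries (log2 fold change 1.75 ± 0.39, edgeR adjusted p = 0.0059). Without EGFP positive replicate 2, the lower of its EGFP positive libraries, the log2 fold change was 1.41 and PCDHB11 was not called. PCDHB8 had 10 and 4 counts against 24 and 20 (log2 fold change 1.57 ± 0.50, edgeR adjusted p = 0.040). Its call was the least firm in the beta array: the adjusted p was 0.18 with DESeq2, 0.054 in edgeR with no filter on low counts and 0.39 in edgeR without EGFP positive replicate 2. Since PCDHB8 shares 20.2% of its 100-base words with PCDHB13, its rise and that of PCDHB13 may not be wholly separate measurements.

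PCDHB16 moved the other way. It had 31 and 33 counts in the EGFP positive and 9 and 11 in the EGFP negative libraries, 2.77 ± 0.129 against 0.833 ± 0.155 CPM. The log2 fold change was -1.73 ± 0.40, that is, 3.31-fold lower (edgeR adjusted p = 0.0075). Every EGFP positive library was well above every EGFP negative one. The call was made in each of the 10 alternatives in which the gene could be tested, with log2 fold changes from -1.91 to -1.55. PCDHB16 lies between PCDHB8 and PCDHB9, of which the first was called higher and the second was not called, and encodes a protein of the same array. Of its exon bases 26.1% were shared with other gene names, which had at most 1 count. Fragments wholly within these bases were assigned to no name.

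The remaining tested beta members were not called. PCDHB10 had 12 and 9 counts against 26 and 25, without overlap (log2 fold change 1.21 ± 0.41, edgeR adjusted p = 0.056). PCDHB9, the gene beside PCDHB16, had 10 and 12 counts against 12 and 11 (log2 fold change 0.00 ± 0.47), and its libraries overlapped. PCDHB2 also overlapped, with 9 and 12 against 17 and 12 counts (log2 fold change 0.40 ± 0.47).

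Within the beta array the make-up of the RNA shifted. PCDHB16 gave 25.0% and 28.4% of all beta counts in the EGFP positive and 3.03% and 4.01% in the EGFP negative libraries. PCDHB13 gave 12.9% and 17.2% against 26.9% and 28.8%, and PCDHB14 gave 11.3% and 7.76% against 18.5% and 17.9%. The most counted beta gene was therefore PCDHB16 in both EGFP positive libraries and PCDHB13 in both EGFP negative ones. The ratio of PCDHB16 to PCDHB13 counts was 1.94 and 1.65 in the EGFP positive libraries. It was 0.1125 and 0.139 in the EGFP negative ones. Both genes were counted in the same libraries, so this ratio does not depend on how libraries were scaled. Leaving PCDHB16 out raised the beta ratio between groups from 2.28 to 2.995, and leaving PCDHB13 out lowered it to 1.93.

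**Figure D3:**
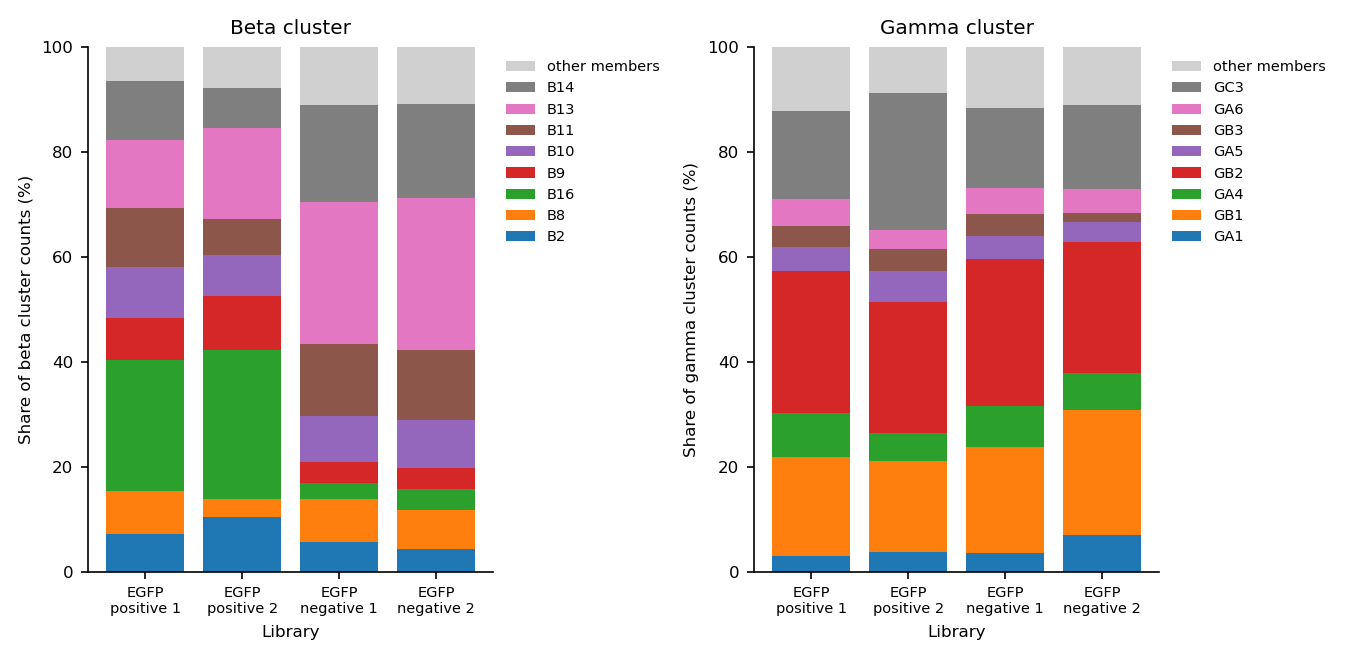
Share of each cluster's counts (%) that came from each tested member and from all other members, one stacked bar per library, beta cluster left and gamma cluster right. The PCDHB16 segment shrinks from 25.0% and 28.4% in the EGFP positive to 3.03% and 4.01% in the EGFP negative libraries. In the gamma bars PCDHGC3 ranges from 15.1% to 26.2% and PCDHGB1 from 17.4% to 23.7%.

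The upstream sequences of the beta gene that fell and of the one that rose with the smallest adjusted p are printed for 250 bases each, ending at the base before the RefSeq start, with the element in capitals. Over the 300-base windows the pair had 56.5% of aligned bases in common. Over all pairs of beta windows the share ran from 43.7% to 71.3% (PCDHB8 and PCDHB13), and PCDHB13 and PCDHB14, which both rose, had 48.9%. The letters next to the element on both sides (acgcgt before, gcagg after) were the same in the gene that fell and in the one that rose.
PCDHB16, chr5:141182137-141182386: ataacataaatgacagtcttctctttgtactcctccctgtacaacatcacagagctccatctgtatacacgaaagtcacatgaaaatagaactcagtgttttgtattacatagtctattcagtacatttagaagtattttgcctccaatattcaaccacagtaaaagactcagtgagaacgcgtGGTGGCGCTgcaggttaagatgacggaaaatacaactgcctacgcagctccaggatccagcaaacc
PCDHB13, chr5:141213669-141213918: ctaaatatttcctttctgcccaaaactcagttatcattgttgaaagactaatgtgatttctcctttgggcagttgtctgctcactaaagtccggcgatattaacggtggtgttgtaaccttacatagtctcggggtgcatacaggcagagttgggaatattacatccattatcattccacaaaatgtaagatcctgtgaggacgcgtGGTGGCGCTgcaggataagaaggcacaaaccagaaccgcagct

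Gamma members come in A, B and C types by similarity of their first exons, and the 7 tested A and B members had log2 fold changes of 0.41 to 1.35. PCDHGB1 (chr5:141350099-141512975), a B type gene, had 62 and 52 counts in the EGFP positive and 129 and 112 in the EGFP negative libraries. Its level was 4.94 ± 0.601 against 9.98 ± 0.541 CPM, 2.02-fold higher (log2 fold change 1.01 ± 0.21, edgeR adjusted p = 0.0033). The groups were clearly apart. PCDHGB2 (chr5:141359994-141512975), its nearest B type neighbour, had 89 and 74 against 180 and 118 counts and rose by a log2 fold change of 0.80 ± 0.21 (edgeR adjusted p = 0.016). EGFP negative replicate 1 was far above replicate 2 here. Without that library the edgeR adjusted p was 0.073, and without EGFP positive replicate 2 it was 0.12.

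PCDHGA1 (chr5:141330514-141512975), the first gene of the array and of the A type, had 10 and 11 counts against 23 and 33. Its log2 fold change was 1.35 ± 0.42 (edgeR adjusted p = 0.039), the largest of the tested gamma members. The call rests on few counts: the adjusted p was 0.18 with DESeq2, 0.055 with limma-voom, and 0.20, 0.15 and 0.12 in edgeR without EGFP positive replicate 1, EGFP positive replicate 2 and EGFP negative replicate 2. PCDHGA4 had 27 and 16 counts against 50 and 34, and the groups did not overlap. It was not called (log2 fold change 0.90 ± 0.35, edgeR adjusted p = 0.095). With 1 library left out, its log2 fold change ran from 0.57 (without EGFP positive replicate 2) to 1.32 (without EGFP positive replicate 1). PCDHGA6 likewise did not overlap and was not called (17 and 11 against 32 and 21 counts). PCDHGA5 and PCDHGB3 overlapped between groups, with log2 fold changes of 0.41 each. PCDHGB3 differed most between its EGFP negative libraries (27 and 8 counts).

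PCDHGC3 (chr5:141475947-141512977), a C type gene near the constant exons that is known to be expressed in many tissues, was among the 3 highest members. It had 55 and 78 counts in the EGFP positive and 97 and 76 in the EGFP negative libraries, 5.76 ± 1.42 against 7.15 ± 0.905 CPM. The groups overlapped and the gene was not called (log2 fold change 0.31 ± 0.24, edgeR adjusted p = 0.41). PCDHGB1 counts were 1.13 and 0.667 times those of PCDHGC3 in the EGFP positive libraries against 1.33 and 1.47 times in the EGFP negative ones. Whether PCDHGC3 differs in fold change from the A and B genes was not tested. The 12 A genes summed to 7.70 and 6.34 against 14.5 and 11.8 CPM (ratio 1.87), the 7 B genes to 15.49 and 12.6 against 28.7 and 21.7 CPM (ratio 1.79), and the 3 C genes to 5.19 and 6.94 against 8.35 and 6.94 CPM (ratio 1.26). The C sums overlapped between groups and the A and B sums did not. PCDHGB2 stayed the most counted gamma gene in 3 libraries, with 24.8% to 28.1% of gamma counts over all 4, and PCDHGC3 held 26.2% in EGFP positive replicate 2.

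Among the tested members the size of the difference followed map order in part. This order does not cover the members under the filter, whose ratios rest on few counts. In map order the tested beta genes had log2 fold changes of 0.40 (PCDHB2), 1.57 (PCDHB8), -1.73 (PCDHB16), 0.00 (PCDHB9), 1.21 (PCDHB10), 1.75 (PCDHB11), 2.07 (PCDHB13) and 2.10 (PCDHB14). From PCDHGA1 onward the tested gamma genes had 1.35, 1.01, 0.90 (PCDHGA4), 0.80, 0.41, 0.41, 0.85 (PCDHGA6) and 0.31 (PCDHGC3). Spearman's rho between position and log2 fold change was 0.738 over the 8 tested beta and -0.833 over the 8 tested gamma members. These points share the same 4 libraries and members with like sequence, so rho is a description. The first 7 beta genes (PCDHB1 to PCDHB7) gave 15 and 19 counts against 36 and 28, a ratio of 1.80 in CPM. The last 9 beta genes (PCDHB8 to PCDHB15, PCDHB16 included) gave 109 and 97 against 261 and 246 counts, a ratio of 2.36. Gamma genes 1 to 9 gave 236 and 201 against 484 and 351 counts, and genes 10 to 19 gave 32 and 17 against 53 and 40, with ratios of 1.82 and 1.81. Most gamma RNA thus came from the first 9 genes, 67.5% to 75.5% of the array's counts in each library.

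**Figure D4:**
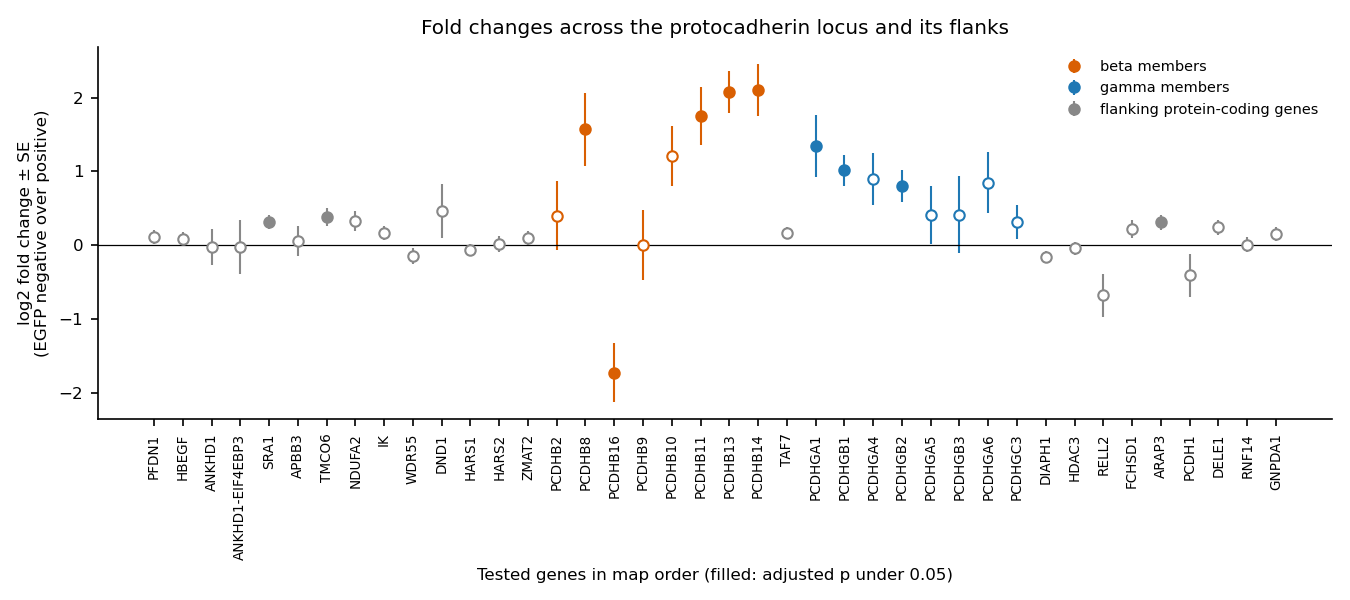
Log2 fold change (EGFP negative over EGFP positive) with its standard error for tested genes in map order across the protocadherin arrays and 500 kb on either side, filled where edgeR's adjusted p is under 0.05 (orange beta, blue gamma, grey other protein-coding genes). The grey points lie between -0.68 and 0.46, PCDHB16 is the low orange point at -1.73, and the orange points climb to 2.10 at PCDHB14.

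Levels can be set beside each other only per length, here CPM per kb of exon that belonged to no other name. In the EGFP positive group the order began with PCDHGB2, PCDHGB1, PCDHGC3 (2.02 CPM per kb), PCDHB16 (0.977) and PCDHGA4 (0.687). In the EGFP negative group it began with PCDHGB1, PCDHGB2, PCDHGC3 (2.51), PCDHB13 (1.30), PCDHGA4 (1.28) and PCDHB14 (1.01). The first pair could not be ordered: PCDHGB2 was higher in the EGFP positive group (2.68 against 2.42) and PCDHGB1 in the EGFP negative group (4.89 against 4.66). PCDHB16 was the highest beta gene in the EGFP positive group and PCDHB13 in the EGFP negative group. The lowest tested member was PCDHGA6 in the EGFP positive (0.211) and PCDHB9 in the EGFP negative group (0.230). The ratio of the median level of the 8 tested gamma to that of the 8 tested beta members was 1.49 over unique exon length and 0.896 over exon length as deposited, so the order of the arrays per length depends on how shared exons are treated.

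The 38 members under the filter had at most 14 counts in any library. Of the 25 with any count, 16 had more counts in the EGFP negative libraries, 6 had fewer and 3 had the same number. PCDHB12, between PCDHB11 and PCDHB13, had 2 and 2 counts against 11 and 10, a ratio of 5.02 (95% counting interval 1.695 to 20.1). PCDHGA10 had 5 and 0 against 13 and 6 counts (ratio 3.64, interval 1.31 to 12.5), without overlap. PCDHB3 had 1 and 0 against 7 and 4 counts (ratio 10.5, interval 1.53 to 453), and PCDHB6 had 1 and 0 against 5 and 3 (ratio 7.66, interval 1.03 to 340). PCDHB15, the last beta gene, had 0 counts in both EGFP positive and 3 and 4 in the EGFP negative libraries. Among those with fewer counts in the EGFP negative libraries, PCDHGA11 had 2 and 1 against 0 and 0 counts, without overlap. PCDHGC4 had 3 and 0 against 1 and 0. These intervals cover counting error only, compare libraries and not conditions, and the genes were singled out after their values were seen. PCDHGB4 (9 and 0 against 6 and 6) and PCDHGA8 (4 and 3 against 4 and 3), which share exons, had ratios of 1.28 and 0.957.

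Genes around the arrays showed smaller differences. Of 30 protein-coding names within 500 kb, 24 were tested, 3 were called higher and 0 lower, with log2 fold changes from -0.68 to 0.46 and a median of 0.09. The shares over all tested names were 9.4% called higher and 9.46% called lower. In the lower direction 1 gene had an unadjusted edgeR p under 0.05 and DESeq2 and limma-voom called 0. SRA1, which encodes a steroid receptor RNA activator, stood at 53.8 and 53.5 against 65.1 and 68.0 CPM (log2 fold change 0.31 ± 0.10, edgeR adjusted p = 0.036). ARAP3, a regulator of small GTPases (0.31, edgeR adjusted p = 0.045), and TMCO6 (0.38, edgeR adjusted p = 0.047) were the others, and the number called higher was 0 with DESeq2, with no filter and without EGFP positive replicate 1 or 2, and 6 without EGFP negative replicate 2. TAF7, a subunit of the general transcription factor TFIID whose gene lies between the beta and gamma arrays, stood at 181 and 186 against 194 and 217 CPM and was not called (log2 fold change 0.16 ± 0.09, edgeR adjusted p = 0.21).

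RNA of known regulators of the arrays was read from a list of 26 CTCF, cohesin, DNA methylation and silencing genes, all of them tested. In the EGFP negative libraries 3 were called higher and 8 lower, with a median log2 fold change of 0.03. Beside this, 9.4% of all tested names were called higher and 9.46% lower. SMC1A, a core subunit of the cohesin ring, stood at 317 and 315 against 415 and 447 CPM (log2 fold change 0.45 ± 0.08, edgeR adjusted p = 0.00097). ATF7IP, a partner of the histone methyltransferase SETDB1, rose by 0.45 ± 0.09 (edgeR adjusted p = 0.0037). DNMT3B, a DNA methyltransferase, fell from 29.6 and 29.3 to 21.3 and 18.5 CPM (log2 fold change -0.56 ± 0.13, edgeR adjusted p = 0.0072). TET3, which oxidises methylated cytosine, fell as well (-0.51 ± 0.12, edgeR adjusted p = 0.0075). The related TET1, singled out after its value was seen, was called higher at a low level (1.64 and 0.955 against 3.05 and 3.26 CPM, edgeR adjusted p = 0.027), so the TET genes that were called moved in opposite directions. CTCF itself stood at 86.7 and 86.1 against 95.5 and 97.4 CPM and was not called (0.16 ± 0.09, edgeR adjusted p = 0.24). CTCF is named as the factor the promoters are known for and was picked outside the rule for named genes. The number of the 26 called lower ran from 1 (without EGFP positive replicate 1 or 2) to 10 over the alternatives, and the number called higher from 1 (without EGFP positive replicate 2) to 6 (without EGFP negative replicate 1).

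Of 24 genes for known partners and effectors, 23 were tested, 3 were called higher and 3 lower, with a median log2 fold change of 0.07. Among all tested names the shares were 9.4% and 9.46%. PRKCA, a protein kinase C, stood at 235 and 226 against 322 and 315 CPM (log2 fold change 0.47 ± 0.08, edgeR adjusted p = 0.00077). The Src family kinase FYN (-0.50 ± 0.10, edgeR adjusted p = 0.0022), the guidance receptor ROBO1 (-0.39 ± 0.10, edgeR adjusted p = 0.011) and the focal adhesion kinase gene PTK2 (-0.31 ± 0.08, edgeR adjusted p = 0.015) fell. Over the alternatives 0 to 4 genes of this list were called in each direction, and at most 1 without EGFP positive replicate 1 or without EGFP positive replicate 2.

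Other cadherin superfamily genes did not share 1 direction. Their calls stand beside 9.4% of all tested names called higher and 9.46% called lower. Of 17 non-clustered protocadherins on the list 5 were tested, 2 called higher and 1 lower, and 1 was called higher without EGFP positive replicate 1 or without EGFP positive replicate 2. PCDH9 stood at 2.42 and 4.17 against 7.31 and 8.66 CPM (log2 fold change 1.27 ± 0.27, edgeR adjusted p = 0.0043), and PCDH18 at 1.21 and 0.781 against 2.57 and 4.28 CPM (1.77 ± 0.41, edgeR adjusted p = 0.0078). PCDH7 fell from 24.6 and 26.7 to 16.2 and 13.5 CPM (-0.79 ± 0.15, edgeR adjusted p = 0.0016). Of 23 classical and related cadherins 5 were tested, 0 called higher and 2 lower by edgeR's quasi-likelihood test, and none was higher at an unadjusted p under 0.05 or with DESeq2 or limma-voom. CDH4, also known as R-cadherin, fell from 173 and 166 to 86.5 and 78.2 CPM (-1.04 ± 0.09, edgeR adjusted p = 2.3e-06), and CDH11, a mesenchymal cadherin, fell from 40.1 and 39.4 to 17.1 and 19.8 CPM (-1.11 ± 0.12, edgeR adjusted p = 2.8e-05).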

How the data were processed

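The authors deposited a table of raw counts for each library, produced, per the file headers, with featureCounts 2.0.1 from paired reads against exons of the GENCODE basic 46 annotation, summed per gene name, with no option for strand, multiple overlap or multiple mapping. Poly(A) selection and a strand-specific kit are given in the labels' protocols. The aligner is not given in the sources used here. The submitters' processing notes name GRCh37 and hg19, whereas all 54 members lie within 5000 bp of their GENCODE 29 place on GRCh38, which concerns the counting and not the alignment. Coordinates are GRCh38.

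Group and replicate number came from the labels. The members, the lists and the tests were chosen with earlier results of these data known. The low-count filter was filterByExpr of edgeR 4.0.16 in R 4.3.3 (count at least 10, total at least 15), TMM factors were 0.987 to 1.01, and the model held group alone over the 4 libraries (quasi-likelihood test, Benjamini-Hochberg adjustment over 16413 names, threshold 0.05). CPM were computed here from the deposited counts and the TMM-scaled totals. An SE is the log2 fold change divided by the root of F. The biological coefficient of variation was 7.52%. Replicates differed by more than sampling noise (chi-square per degree of freedom 2.06 for the EGFP positive pair, 6.15 for the EGFP negative pair), so no pair was treated as 1 library deposited again.

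Members that passed the test or averaged at least 2 CPM are given library by library. From each list up to 4 genes that passed are named by smallest adjusted p, and TAF7 was added. Other members named were chosen after their values were seen. Intervals of ratios of low counts are exact binomial ones at 95%. Promoter windows are RefSeq's, and shared words were counted on GENCODE 29 transcripts without the constant exons. Alternatives were RLE and upper quartile scaling, the fit without a filter, a stricter one (1 CPM or more in 2 libraries, 100 counts in sum), DESeq2 1.42.0, voom in limma 3.58.1, a replicate block and each library left out.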

Additional observations from a re-analysis of the deposited data

How the results depend on the processing

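PCDHB16, PCDHB13, PCDHB14 and PCDHGB1 kept their calls in every alternative in which they were tested. The number of members called higher (7) was 3 to 7 with 1 library left out, and 3 without EGFP positive replicate 2. Members called lower (1) became 0 with the stricter filter, under which 7 members were tested and PCDHB16 was not. Over all names, 1543 higher and 1552 lower calls became 720 to 2477 and 715 to 2465 with 1 library left out, and DESeq2 called 1044 higher and 997 lower. The sign turned for PCDHB9, to -0.000794 with no filter, -0.13 without EGFP positive replicate 1 and -0.02 without EGFP negative replicate 1, and for PCDHGB3, to -0.65 without EGFP negative replicate 1. With each library left out in turn, PCDHB9 ranged from -0.13 to 0.14 and PCDHGB3 from -0.65 to 1.00. The gamma to beta ratio of median levels per kb was 0.896 with lengths as deposited. The log2 ratio of beta sums was 1.14 to 1.23 and that of gamma sums 0.57 to 0.93 with 1 library left out.

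Replicate numbers are shared between groups, but the labels do not say that a number marks a shared culture or day, and there are only 2 pairs. Deviations of same-numbered libraries correlated at 0.269 across 12084 names. With the replicate block, 9 members were called higher and 1 lower (PCDHB10 and PCDHGA4 were added), and 2297 names higher and 2407 lower over all. Depth limits the alpha array and the 38 members under the filter, for which differences were not detectable by the test.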

Other observations

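Pseudogenes of the arrays, which the rule for members leaves out, had few counts. PCDHB18P had 1 and 1 counts in the EGFP positive and 5 and 1 in the EGFP negative libraries, PCDHGB8P 1 and 2 against 1 and 0, and PCDHGB9P 0 and 1 against 3 and 0. PCDHB17P and PCDHB19P had 0 counts in all 4 libraries.

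Among tested names with a mean level between 0.953 and 9.67 CPM, the range of the tested members, 547 of 5316 (10.3%) were called in either direction.

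CDH2, the neural cadherin often high in mesenchymal cells, stood at 0.952 and 1.13 CPM in the EGFP positive and 0.0803 and 0.428 CPM in the EGFP negative libraries and was not called (edgeR adjusted p = 0.054).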
